A study of Saccharomyces cerevisiae with 6 samples.

Results

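Pyruvate stands at a branch point of yeast carbon metabolism, and the 7 genes described here encode the enzymes of the mitochondrial pyruvate dehydrogenase (PDH) complex and both pyruvate carboxylases. They were taken from the gene count table by name, a rule that uses no measured value, although the set was chosen with earlier results of these data known. They are *PDA1*, *PDB1*, *LAT1*, *LPD1* and *PDX1* for the PDH complex and *PYC1* and *PYC2* for the carboxylases. All 7 of the 7 were among the 6083 genes that passed the filter on low counts, of 7126 genes in the table.

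The samples are diploid yeast of the filamentous Σ1278b background (spelled Siga1278b in the labels) after 20 h in low-nitrogen medium, with 3 single colonies of each strain. Both strains are homozygous for *ura3-52* and for a deletion of chromosomal *KCS1*, which encodes an inositol polyphosphate kinase, and both carry *leu2Δ0* and *trp1-1* from their parents. The control strain (called wild type here) received *KCS1* on the plasmid pRS416, and the mutant strain received *kcs1*-S537A,S646A on the same plasmid, an allele that encodes alanine in place of 2 serines studied as sites of the kinase Snf1. All colonies with an allele came from 1 strain, so the tests measure the spread between colonies, and an effect of the allele cannot be told apart from other differences between the strains.

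The PDH complex converts pyruvate to acetyl-CoA in the mitochondrial matrix. Its E1 component, a tetramer of *PDA1* and *PDB1* products, decarboxylates pyruvate with thiamine pyrophosphate as a cofactor. The E2 component, encoded by *LAT1*, forms the core and carries the acetyl group on a lipoyl arm, and E3, encoded by *LPD1*, reoxidizes that arm. The *PDX1* product anchors E3 to the core. Pyruvate carboxylases are biotin enzymes that make oxaloacetate from pyruvate and so refill the TCA cycle, and in yeast they are cytosolic. In fermenting yeast, most pyruvate passes to pyruvate decarboxylase instead of the PDH complex.

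*LAT1* was the only member whose transcript level passed the test, and it was lower in the mutant, at 0.600 times the wild-type level. It lies on chromosome XIV, where the typical gene was lower in each of the 3 mutant samples, and with that chromosome-wide difference subtracted its log2 fold change was -0.21 and no longer passed. *LPD1* lies on chromosome VI, whose genes were low in mutant replicate 1, and *LPD1* was low in that sample. None of the other members lies on these chromosomes. *PYC1* had higher values in all 3 mutant samples than in any wild-type sample, and *PDA1*, *LPD1* and *PDX1* had lower ones, without passing the test. Of all genes tested, 11.8% were higher and 14.8% lower in this way. Without mutant replicate 1, the log2 fold change went from 0.45 to 0.23 for *PYC1* and from -0.30 to -0.20 for *PDA1*.

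Each coding sequence is a single exon in the R64 reference annotation, which has the same start and end as the count table for all 7 genes. *PDA1* (YER178W) lies on the plus strand of chromosome V from 546817 to 548079. *PDB1* (YBR221C) lies on the minus strand of chromosome II from 665153 to 666253, close to *PYC2* (YBR218C), also on the minus strand, from 658707 to 662249. *LAT1* (YNL071W) lies on the plus strand of chromosome XIV from 491523 to 492971, and *LPD1* (YFL018C) on the minus strand of chromosome VI from 101628 to 103127. On chromosome VII lie *PDX1* (YGR193C), on the minus strand from 884509 to 885741, and *PYC1* (YGL062W), on the plus strand from 385196 to 388732.

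In pairs of these genes, residues around a cofactor site can be read from the coding sequences. *LAT1* and *PDX1* each encode a lipoyl domain, in which the lipoyl group of *LAT1* is attached to a lysine in the residues ETDK. Those residues occur once in each protein. The sense strands around this lysine, from the R64 genome of strain S288C at XIV:491718-491777 for *LAT1* and VII:885493-885552 (minus strand) for *PDX1*, are shown 5′ to 3′ with the lysine codon in capitals (lysine 75 in *LAT1* and lysine 73 in *PDX1*). They show this site in *LAT1*, the only member called lower in the mutant, beside that in *PDX1*.
LAT1: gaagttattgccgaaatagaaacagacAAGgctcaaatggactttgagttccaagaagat
PDX1: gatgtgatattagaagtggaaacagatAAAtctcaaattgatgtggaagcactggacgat

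*PYC1* and *PYC2* are paralogs whose reads can be mistaken for each other, so the sequences bear on how far their counts can be separated. Both end in a biotin domain, in which biotin is attached to the lysine of the residues AMKM (lysine 1135 in *PYC1* and 1136 in *PYC2*). The sense strands around that lysine, at VII:388571-388630 for *PYC1* and II:658812-658871 (minus strand) for *PYC2* in the same genome, differ at 15 of 60 bases, which are in capitals.
PYC1: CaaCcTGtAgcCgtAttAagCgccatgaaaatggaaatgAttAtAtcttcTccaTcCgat
PYC2: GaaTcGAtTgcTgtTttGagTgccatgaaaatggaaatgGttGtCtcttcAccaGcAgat

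Over their whole length, the coding sequences of *PYC1* and *PYC2* were 85.1% identical (3020 of 3548 aligned positions) and the proteins 92.7%. Of all stretches of 150 bases in *PYC1*, the length of each read of a pair, 1.51% occurred without a mismatch in *PYC2* (51 of 3388). Of all stretches of 50 bases, 8.46% did. The longest identical run was 200 bases, shorter than the cDNA fragments preferentially selected for the libraries. The reads were paired, and these single stretches do not count a mate that lies outside such a run. The split between both genes is uncertain to the extent that reads from such runs were assigned or dropped, which is not given in the sources used here.

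The libraries held between 17950923 and 22701020 counted fragments. Levels below are CPM (counts relative to library size, scaled by TMM factors) for comparisons of a gene between samples, and FPKM (counts relative to gene length and depth, as deposited) for comparisons between genes. The biological coefficient of variation was 0.129. The cultures were measured in bulk, so fewer cells of a kind and less RNA per cell cannot be told apart. *KCS1* had 309.1 to 366.7 CPM in wild type and 272.2, 796.7 and 347.4 CPM in mutant replicates 1, 2 and 3, which does not check the allele, since the mutant codons are transcribed as well. *URA3*, the marker on the plasmid, had 1570 to 2062 CPM in wild type and 1649, 4741 and 2156 CPM in the mutant, with the same high sample. For the diploid state, 7 haploid-specific genes were examined, among them the pheromone receptor genes *STE2* and *STE3*. All lay below the median wild-type level of all genes tested (54.8 CPM), at 2.81 to 37.3 CPM. Their summed level was 101.7 to 103.8 CPM in wild type and 101.2 to 117.7 CPM in the mutant. With no haploid sample to compare, these levels cannot decide the diploid state. For 14 of the nuclear chromosomes, the median log2 difference of a sample from the wild-type mean lay between -0.017 and 0.086. For the 407 genes tested on chromosome XIV it was -0.52, -0.54 and -0.53 in mutant replicates 1, 2 and 3, and for the 131 on chromosome VI it was -0.95, 0.043 and 0.029.

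In wild type, the subunit genes of the PDH complex differed in level. *PDA1* was highest, at 396.9 ± 6.87 FPKM (SD, n = 3), followed by *PDB1* at 370.5 ± 10.1 and *LAT1* at 342.2 ± 15.8 FPKM. All 3 were above 90% of the genes tested. *LPD1*, which serves other complexes as well, had 168.5 ± 2.51 FPKM, and *PYC1* and *PYC2* had 155.2 ± 12.2 and 126.5 ± 4.55 FPKM. *PDX1* was lowest, at 65.2 ± 1.97 FPKM (SD, n = 3). Of the neighbours in this order, *LPD1* and *PYC1* overlapped between samples and the others did not. In the mutant the order of the means was *PDB1* at 347.9 ± 31.2, *PDA1* at 321.5 ± 44.3, *PYC1* at 211.5 ± 52.0, *LAT1* at 205.2 ± 13.8, *PYC2* at 130.0 ± 9.67, *LPD1* at 126.7 ± 48.2 and *PDX1* at 58.0 ± 1.81 FPKM (SD, n = 3 each). There, only *LAT1* and *PYC2*, and *LPD1* and *PDX1*, did not overlap as neighbours in the order.

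The question of the comparison is which transcript levels depend on the Snf1 sites of Kcs1 in low nitrogen. In edgeR's quasi-likelihood test with Benjamini-Hochberg adjustment over all genes tested, 1 of the 7 members was called lower and 0 were called higher, where 4.67% of all genes tested were called lower and 0.986% higher. At an unadjusted *p* of 0.05, 3 members were lower and 1 was higher, against 11.9% and 8.24% of all genes. DESeq2 also called 1 member lower and 0 higher, where it called 6.92% of the 6069 genes with an adjusted *p* lower and 2.62% higher. In 4 members all mutant samples lay below all wild-type samples, and in 1 they lay above, as they did in 14.8% and 11.8% of all genes. The median log2 fold change was -0.17 over the 7 members and 0.015 over all genes tested.

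**Figure D1:**
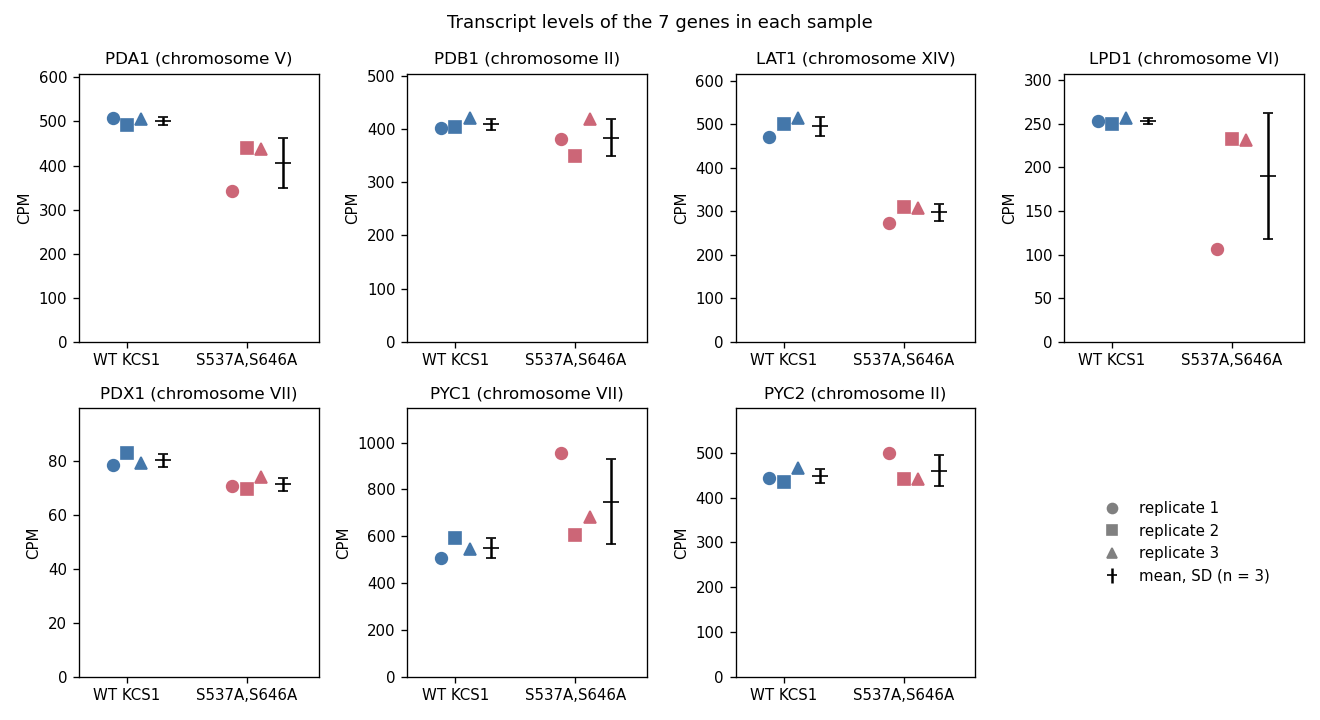
CPM of each of the 7 genes (vertical axes, starting at 0) in the 3 wild-type and the 3 mutant samples. Points are samples, with a symbol per replicate number, and bars give the mean and SD. The groups are far apart for LAT1, while mutant replicate 1 is the low sample for LPD1 and PDA1 and the high sample for PYC1.

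For E1, *PDA1* encodes the alpha subunit, on which the activity of the complex is regulated by phosphorylation. It had 507.2, 491.5 and 506.3 CPM in wild-type replicates 1, 2 and 3 and 341.2, 439.5 and 437.9 CPM in mutant replicates 1, 2 and 3. All 3 mutant samples were below wild type, and replicate 1 was the lowest of them. edgeR gave a log2 fold change of -0.30 ± 0.12 (standard error) at an adjusted *p* of 0.21. Without mutant replicate 1, it was -0.20 (adjusted *p* = 0.19). Only 15 of the 302 genes tested on chromosome V had a lower log2 fold change than *PDA1*, and the 20 genes tested nearest to it had a median of 0.077.

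*PDB1* encodes the beta subunit of E1. Its level was 400.7, 404.2 and 419.8 CPM in the wild-type samples and 380.4, 349.8 and 419.3 CPM in the mutant samples. The groups overlapped, since mutant replicate 3 was as high as the highest wild-type sample to within 1 CPM. The log2 fold change of -0.091 ± 0.098 (standard error) at an edgeR adjusted *p* of 0.66 was smaller than its error. The ratio of *PDA1* to *PDB1* in FPKM was 1.10, 1.06 and 1.05 in wild type and 0.78, 1.10 and 0.91 in the mutant. The ratio was close to 1 in wild type, and in the mutant it lay within the wild-type range in replicate 2 and below it in replicates 1 and 3.

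*LAT1*, the dihydrolipoamide acetyltransferase of the core, had 472.2, 502.2 and 514.3 CPM in wild-type replicates 1, 2 and 3. In mutant replicates 1, 2 and 3 it had 274.3, 310.6 and 307.6 CPM. The groups were separated by far more than the spread within either. The mean fell from 496.2 ± 21.7 to 297.5 ± 20.2 CPM (SD, n = 3 each). This was a log2 change of -0.74 ± 0.094 (standard error) at an edgeR adjusted *p* of 0.0055.

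Of the 20 genes tested nearest to *LAT1*, 17 had a negative log2 fold change. Of the 407 genes tested on chromosome XIV, 233 (57.2%) were called lower, and their median log2 fold change was -0.52. Of these genes, 69 (17.0%) had a lower log2 fold change than *LAT1*. The neighbour before it, *RNH201*, which encodes the catalytic subunit of ribonuclease H2, fell with a log2 fold change of -0.65 (adjusted *p* = 0.015). The neighbour after it, *TOM7*, which encodes a subunit of the translocase of the mitochondrial outer membrane, had -0.36 (adjusted *p* = 0.24). Among the 20 nearest genes, which span 36.2 kb, 10 were called lower and 0 higher, and their log2 fold changes ranged from -0.89 to 0.24 with a median of -0.45.

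The difference reached along the whole chromosome. In 14 windows of 50 kb counted from *LAT1*, each with at least 20 genes tested, the median log2 fold change lay between -0.61 and -0.41. Relative to the median of chromosome XIV in the same sample, *LAT1* stood at -0.076, 0.027 and 0.050 in wild type and at -0.33, -0.13 and -0.16 (log2) in mutant replicates 1, 2 and 3. All 3 mutant values were still below the wild-type values on this relative scale. In an edgeR fit with an offset per sample for chromosomes XIV and VI, the log2 fold change of *LAT1* was -0.21 (standard error 0.097, adjusted *p* = 0.34), and 0.247% of all genes tested were called in either direction.

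**Figure D2:**
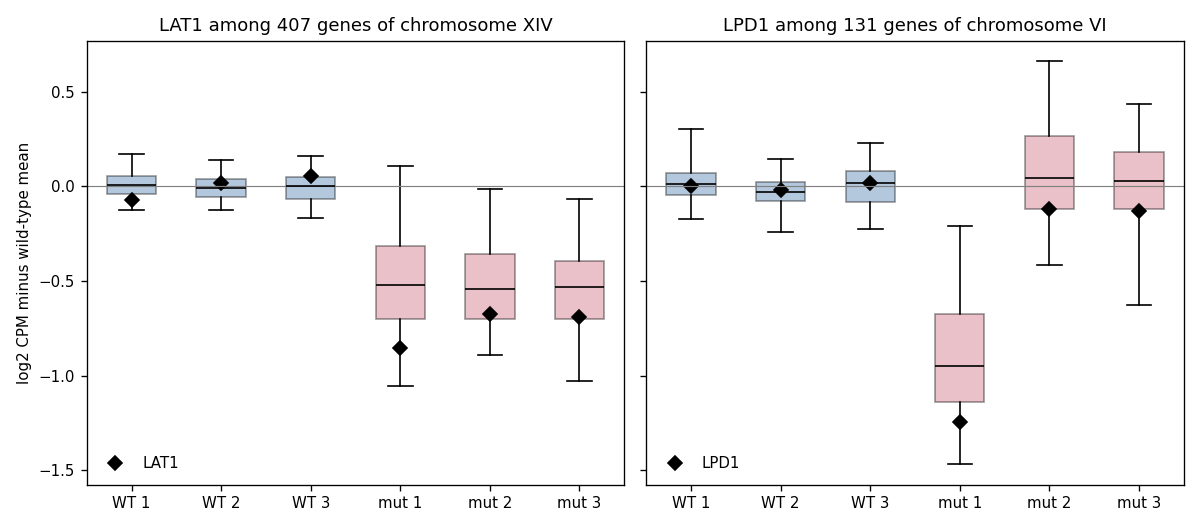
Log2 CPM minus the wild-type mean (vertical axis) in each of the 6 samples, for the 407 genes tested on chromosome XIV with LAT1 as a diamond (left) and the 131 on chromosome VI with LPD1 as a diamond (right). Boxes give the median and quartiles and whiskers the 5th and 95th percentiles over genes, and LAT1 lies below the chromosome's median in all 3 mutant samples, while in mutant replicate 1 the whole box of chromosome VI is low and LPD1 lies below it, with 15 of the 131 genes lower still.

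The profile of *LAT1* over the 6 samples (log2 CPM minus the wild-type mean) was compared with that of every other gene tested by the root mean square difference. The nearest were YNL200C (0.049), *MGS1*, which encodes an ATPase that maintains genome stability (0.051), and *CNM67*, which encodes a component of the spindle pole body (0.052). All 3 lie on chromosome XIV, as do 19 of the 20 nearest genes.

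*LPD1* encodes dihydrolipoamide dehydrogenase, the E3 that the PDH complex shares with the 2-oxoglutarate dehydrogenase and glycine cleavage complexes. Its wild-type levels were close to each other, at 253.3, 249.3 and 256.3 CPM. The mutant samples had 106.6, 232.8 and 231.2 CPM, so that replicate 1 was less than 50% of the others. The log2 fold change was -0.41 with a standard error of 0.26 (adjusted *p* = 0.43 from edgeR). Without mutant replicate 1 it was -0.13 (adjusted *p* = 0.37).

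Mutant replicate 1 is also the sample in which chromosome VI was low. There, *LPD1* stood at -1.25 from the wild-type mean on the log2 scale and the chromosome's median at -0.95, and 15 of the 131 genes were lower than *LPD1*. The 20 genes nearest to it had a median of -0.92 in this sample, and of 0.19 and -0.0033 in mutant replicates 2 and 3. Over 5 windows of 50 kb with at least 20 genes, the medians in mutant replicate 1 were between -1.07 and -0.82. The direct neighbours, YFL019C and *SMX2*, which encodes a core protein of the spliceosomal snRNPs, stood at -1.23 and -0.74 in that sample. Both have low levels, with wild-type means of 3.64 and 9.93 CPM, so their values are less certain than that of *LPD1*.

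Relative to the median of chromosome VI, *LPD1* was at -0.30, -0.16 and -0.16 in the mutant samples and between -0.010 and 0.0087 in wild type. The mutant samples were thus below wild type on the relative scale too, with a narrower spread between them. The offset fit gave a log2 fold change of -0.20 with a standard error of 0.080 (adjusted *p* = 0.27 from edgeR). The 3 genes with profiles nearest to *LPD1* were *ALK1* (root mean square difference 0.047), which encodes a haspin-type kinase and lies on chromosome VII, and *SEC4* (0.055), a Rab GTPase of exocytosis, and *IRC5* (0.064), both on chromosome VI. Of the 20 nearest, 17 lie on chromosome VI.

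**Figure D3:**
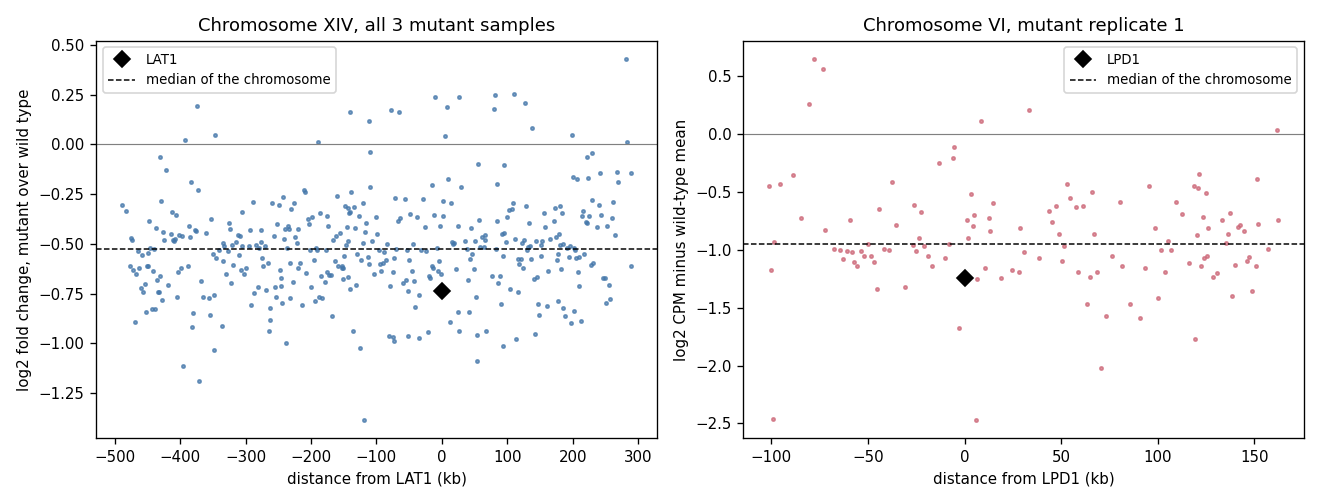
Each point is a gene tested, by its distance in kb from LAT1 on chromosome XIV (left, log2 fold change of mutant over wild type) and from LPD1 on chromosome VI (right, log2 CPM of mutant replicate 1 minus the wild-type mean). The diamond is the named gene and the dashed line the chromosome's median, at -0.52 on the left, and the low values reach along each whole chromosome.

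*PDX1*, the E3-binding protein, had the lowest level and a small spread. It had 78.7, 83.1 and 79.4 CPM in wild type and 70.7, 69.7 and 74.1 CPM in the mutant. The mutant samples lay below all wild-type samples by a small margin. edgeR gave a log2 fold change of -0.17 ± 0.070 (standard error) at an adjusted *p* of 0.23. The 20 genes tested nearest to *PDX1* had a median of 0.060, and the 549 genes tested on chromosome VII a median of 0.043.

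Taking the 5 subunit genes of the PDH complex together, all 5 had a negative log2 fold change, from -0.74 for *LAT1* to -0.091 for *PDB1*, with a median of -0.30. With the offset for chromosomes XIV and VI they ranged from -0.30 for *PDA1* to -0.091 for *PDB1*, with a median of -0.20, against 0.028 over all genes tested. The range across the 5 subunits narrowed from 0.65 to 0.21 (log2) with the offset. Of the subunits, the offset changes only *LAT1* and *LPD1*, which had the lowest values, so some narrowing was built into it. None of the 5 passed the test in that fit. Without mutant replicate 1 as well, the offset fit also called none of them.

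**Figure D4:**
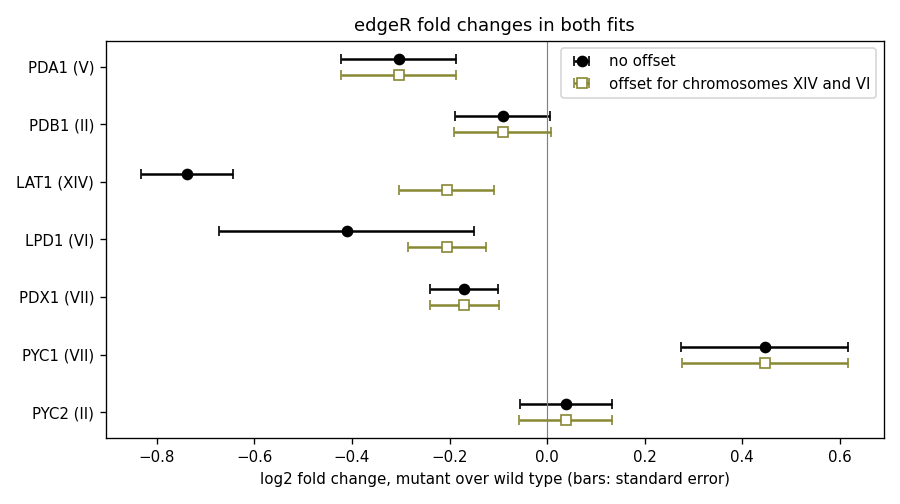
Log2 fold change of mutant over wild type with its standard error (horizontal axis) for the 7 genes, without an offset (filled circles) and with an offset per sample for chromosomes XIV and VI (open squares). LAT1 moves from -0.74 to -0.21 and LPD1 from -0.41 to -0.20, and the genes of other chromosomes stay in place.

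The summed level of the 5 subunit genes was 1319, 1336 and 1375 FPKM in wild type and 934.0, 1092 and 1152 FPKM in the mutant, without overlap. Of all single genes tested, 14.8% also had all mutant samples below all wild-type samples. The sum carries no chromosome offset. It holds *LAT1*, with mean levels of 342.2 FPKM in wild type and 205.2 FPKM in the mutant, and *LPD1*, with 168.5 and 126.7 FPKM. Within this sum, *LAT1* took 24.6%, 25.9% and 25.9% in wild type and 20.3%, 19.6% and 18.4% in the mutant. The mean share was 25.5% ± 0.743 in wild type and 19.4% ± 0.959 in the mutant (SD, n = 3 each). The difference of -6.03 percentage points had *p* = 0.1 in a 2-sided exact permutation test, the smallest value that 3 samples against 3 allow, so this design cannot reach 0.05. With *LPD1* left out of the sum, the difference was -7.10 percentage points. These shares carry no chromosome offset, so the lower level of chromosome XIV genes in the mutant enters the *LAT1* share.

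The shares of the other subunits moved less or varied more. *PDB1* took 27.5% to 27.8% in wild type and 37.0%, 29.1% and 33.0% in mutant replicates 1, 2 and 3. *LPD1* took 12.4% to 12.8% in wild type, but 7.62% in mutant replicate 1 and 14.2% and 13.4% in replicates 2 and 3. For *PDA1* the share was 29.6% ± 0.674 and 30.3% ± 1.48, and for *PDX1* 4.85% ± 0.176 and 5.51% ± 0.547, in wild type and mutant (SD, n = 3 each). The exact permutation test also gave *p* = 0.1 for *PDB1* and *PDX1*, and larger values for *PDA1* and *LPD1*. Shares of a sum depend on each other, and a share rises where another falls. The ratio of *LAT1* to its partner *PDX1* was 5.11, 5.14 and 5.51 in wild type and 3.30, 3.79 and 3.53 in the mutant, again without overlap. This ratio was also taken without a chromosome offset.

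**Figure D5:**
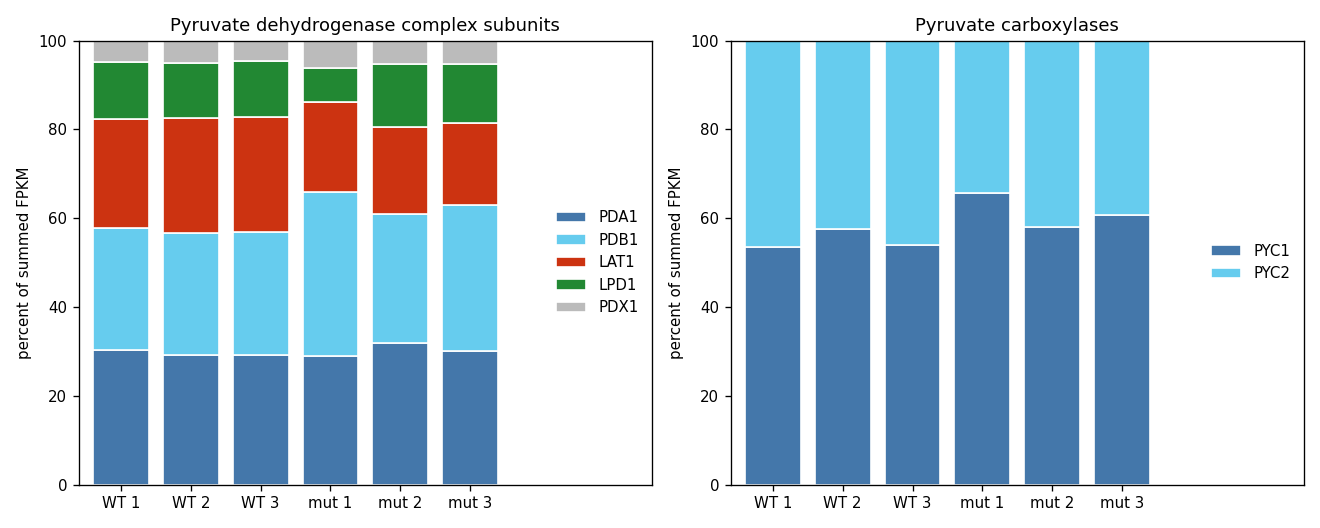
Percent of the summed FPKM (vertical axes, 0 to 100) taken by each of the 5 PDH subunit genes (left) and by PYC1 and PYC2 (right) in the 6 samples. The LAT1 segment is 24.6% to 25.9% in wild type and 18.4% to 20.3% in the mutant, the LPD1 segment is smallest in mutant replicate 1, and the PYC1 segment, over 50% in every sample, is largest in that sample.

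*PYC1*, whose product is an isozyme of pyruvate carboxylase, had 508.2, 592.9 and 546.4 CPM in wild type and 955.7, 607.3 and 681.9 CPM in mutant replicates 1, 2 and 3. All mutant values were above wild type, but replicate 2 exceeded the highest wild-type sample only slightly, and replicate 1 stood apart. edgeR gave a log2 fold change of 0.45 ± 0.17 (standard error) at an adjusted *p* of 0.20, and without mutant replicate 1 it was 0.23 (adjusted *p* = 0.24). On chromosome VII, 519 of the 549 genes tested had a lower log2 fold change, and the 20 genes nearest to *PYC1* had a median of 0.0052.

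*PYC2*, the other isozyme, had 443.9, 436.1 and 465.7 CPM in wild type and 499.7, 441.2 and 440.8 CPM in the mutant. The groups overlapped, and the log2 fold change of 0.038 ± 0.094 (standard error) at an edgeR adjusted *p* of 0.86 changed sign with library totals in place of TMM and without mutant replicate 1. *PYC1* took 53.4%, 57.7% and 54.0% of the summed FPKM of both genes in wild type and 65.7%, 58.0% and 60.8% in the mutant. The difference of 6.44 percentage points had *p* = 0.1 in the 2-sided exact permutation test, the smallest it can give. The highest wild-type and the lowest mutant share differed by less than 1 percentage point. *PYC2* and *PDB1* are near neighbours on chromosome II, and neither had a log2 fold change larger than its standard error.

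Genes around these enzymes were examined in 6 lists with 26 genes, all of which were tested. None of the 26 was called in either direction by edgeR, while 4 were lower and 2 higher at an unadjusted *p* of 0.05, shares near the 11.9% and 8.24% of all genes tested. Their log2 fold changes ranged from -0.90 to 0.52 with a median of -0.0055, and 13 were below and 13 above 0.

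Among the 4 regulators of the PDH complex, *PKP1*, a mitochondrial kinase that phosphorylates the E1 alpha subunit, had the lowest log2 fold change. It had 56.0 to 58.3 CPM in wild type and 39.4, 47.6 and 46.4 CPM in the mutant (log2 fold change -0.35 ± 0.090 SE, adjusted *p* = 0.069). The other kinase gene, *PKP2*, had 0.12 (adjusted *p* = 0.71), the highest of this list. The *PKP1* samples did not overlap between the strains and the *PKP2* samples did. Among the 26 genes of the 6 lists, 4 were lower and 4 higher without overlap, against 14.8% and 11.8% of all genes tested. The phosphatase genes *PTC5* and *PTC6* lay between them, at -0.12 and 0.028.

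Among the 6 genes of the complexes that share E3 with the PDH complex, *KGD1*, the E1 of 2-oxoglutarate dehydrogenase, had the lowest log2 fold change. Its levels were 278.7 to 304.7 CPM in wild type and 236.8 to 248.5 CPM in the mutant (log2 fold change -0.28, adjusted *p* = 0.11). *GCV2*, the glycine decarboxylase of the glycine cleavage complex, was highest in this list at 0.27 (adjusted *p* = 0.41). *YMR31*, a subunit of 2-oxoglutarate dehydrogenase whose gene lies on chromosome VI like *LPD1*, had mutant levels of 23.6 CPM (replicate 1), 61.0 CPM (replicate 2) and 46.2 CPM (replicate 3), against 49.1 to 51.9 CPM in wild type. It had the same low sample as *LPD1*. Of the 3 lipoate genes, which synthesize lipoate or attach it to proteins, *LIP3* (listed as *AIM22*) was highest at 0.16 (adjusted *p* = 0.28) and *LIP2* lowest at -0.039 (adjusted *p* = 0.87).

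Upstream of the complex, pyruvate enters mitochondria through a carrier. *MPC2* (YHR162W in the table), a subunit of this carrier, had 375.3, 375.9 and 330.2 CPM in wild type and 634.1, 534.1 and 385.1 CPM in the mutant (log2 fold change 0.52 ± 0.17 SE, adjusted *p* = 0.15). *MPC3* (listed as *FMP43*) had -0.27 (adjusted *p* = 0.50). As for *PYC1*, mutant replicate 1 was the highest *MPC2* sample.

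In the cytosol, 5 genes make or decarboxylate pyruvate. *PDC6*, a minor pyruvate decarboxylase, had 125.5 to 168.2 CPM in wild type and 38.3, 45.2 and 147.2 CPM in the mutant (log2 fold change -0.90 ± 0.46 SE, adjusted *p* = 0.33). Mutant replicate 3 lay within the wild-type range. *CDC19*, the main pyruvate kinase, was highest in this list at 0.31 (adjusted *p* = 0.47). Among the 5 genes of biotin enzymes and biotin supply, *ACC1*, the acetyl-CoA carboxylase, which lies on chromosome XIV like *LAT1*, was lowest at -0.48 (adjusted *p* = 0.18) and had 0.054 in the offset fit. *VHT1*, the biotin transporter of the plasma membrane, was highest at 0.19 (adjusted *p* = 0.48).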

How the data were processed

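RNA was measured in 6 samples, 3 per strain. Adapter and low-quality reads had been removed before mapping with HISAT2 2.0.5 and counting with featureCounts 1.5.0-p3. The authors deposited raw counts per gene and FPKM values. The deposited FPKM divide each count by gene length and by a depth proportional to the DESeq2 size factor, as checked on the values. The deposited mean FPKM per strain were not used. Build and strand setting are not given in the sources used here. Of the identifiers in the table, 6048 are in the R64 annotation, and 6036 of these have the same start and end.

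The counts were tested with edgeR 4.0.16 under R 4.3.3 (filterByExpr with a minimum of 10 counts, TMM, glmQLFit and glmQLFTest, 2-sided, Benjamini-Hochberg over 6083 genes, threshold 0.05). Log2 CPM used a prior count of 3. Standard errors were derived from each gene's fold change and F value. For the offset fit, the median log2 difference of chromosome XIV or VI from the wild-type mean was removed in each sample. Shares of FPKM were compared by exact permutation tests with scipy 1.17.1, and *PYC1* and *PYC2* were aligned with Biopython 1.88. Members, lists and tests were chosen with earlier results of these data known.

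Named genes are the 7 members, any called gene and the extremes of each list, the direct neighbours of *LAT1* and *LPD1*, the 3 genes nearest to each in profile, and *KCS1*. *URA3*, the plasmid marker, was a further label check. *YMR31*, *PTC5*, *PTC6*, *STE2* and *STE3* were named after their values were seen. Same-numbered samples were not paired, since the numbers name colonies. Alternatives were other scalings, filters and tools (DESeq2 1.42.0, limma 3.58.1, also on log2(FPKM + 1)), a replicate block, each sample left out, and chromosomes XIV and VI offset or left out. The edgeR fits with and without the offset were run on simulated data. Members had at least 1353 counts in every sample.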

Additional observations from a re-analysis of the deposited data

How the results depend on the processing

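*LAT1* stayed lower in 14 alternatives (log2 fold change -0.80 to -0.69, adjusted *p* up to 0.048) and lost its call in the chromosome offset fit (-0.21, adjusted *p* = 0.34) and in that fit without mutant replicate 1, which was added after seeing the data (-0.15, adjusted *p* = 0.40). The number of members called lower was 0 in both of these fits and without chromosomes XIV and VI, where *LAT1* and *LPD1* have no value, and 1 elsewhere. None was called higher in any. With the replicate block, *LAT1* had -0.74 (adjusted *p* = 0.018) and 282 genes were called. The block changed no member's call. Same-numbered samples correlated at -0.14, 0.025 and 0.35 in their deviations from the group means, and differently numbered ones at -0.26 to 0.26. The numbers name colonies and were not taken as pairs. Of all genes tested, 344 were called, against 579 with DESeq2, 15 with the offset, 19 with the offset and without mutant replicate 1, 16 without both chromosomes, and 84 to 481 with each sample left out (96, 84 and 122 without wild-type replicates 1, 2 and 3). The share of calls that were higher was 17.4%, but 27.5% with DESeq2, 66.7% with the offset, 78.9% with the offset and without mutant replicate 1, and 56.2% without both chromosomes. *PYC2* had -0.028 with library totals, -0.027 in the offset fit without mutant replicate 1, and from -0.027 to 0.068 with each sample left out. The other members kept their direction in every alternative run and were not called. The *LAT1* share difference ranged from -7.10 to -5.51 percentage points and the *PYC1* share difference from 4.33 to 8.21. No alternative applied the chromosome offset to the shares. With a sample left out, the exact permutation test cannot go below 0.2. The read split of *PYC1* and *PYC2* limits their shares to an extent that was not tested. Of all 150-base stretches of *PYC1*, taken singly and not as read pairs, 1.51% occurred in *PYC2*.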
